A study of Mus musculus with 8 samples.

Results

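Mitochondrial ribosomal protein genes, named Mrpl for the large and Mrps for the small ribosomal subunit, were measured in the heart ventricles of mice with and without cardiac Med1. Members were all rows of the deposited FPKM table whose symbol is Mrpl or Mrps followed by a digit, with the row of highest mean kept for each symbol and joined loci left out. This gave 76 genes of 23847 rows, of which 47 are Mrpl and 29 are Mrps, and none shared a symbol with another row. The ventricles came from C57BL/6 mice at postnatal day 21, and poly(A) RNA was sequenced in 8 libraries. The knockout group held 4 libraries from Med1 cardiac knockout mice, and the control group held 4 from Med1 fl/fl mice, labelled WT, whose floxed allele is left undeleted. Neither the promoter that drove the deletion nor the number of animals per library is stated in the sources used here. Were they not separate animals, the p-values would cover no more than the variation among these 8 libraries.

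The mitochondrial ribosome (mitoribosome) translates the few messages of mitochondrial DNA, all of which encode subunits of the respiratory chain and ATP synthase. Its RNAs come from mitochondrial DNA, but every one of its proteins is encoded in the nucleus, made in the cytosol and imported, so both genomes contribute to each particle. Some of the proteins have bacterial counterparts and others are found only in mitochondria. Heart muscle is rich in mitochondria, and inherited defects of several of these proteins, MRPL3, MRPL44 and MRPS22 among them, are known causes of cardiomyopathy in children. Med1 is a subunit of Mediator, which links transcription factors to RNA polymerase II.

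Levels are in FPKM, which scales the fragments of a gene to its transcript length and to the size of its library. FPKM totals were 481719 to 502629 in the knockout libraries and 507484 to 536174 in WT, and 11526 to 12273 genes reached 1 FPKM per library. The number of fragments behind each value is unknown. Med1 averaged 8.31 ± 0.619 FPKM in the knockout and 14.8 ± 2.83 in WT (SD, n = 4 each), 56.3% of WT, and its groups did not overlap (exact two-sided permutation p = 0.0286, the smallest that 70 assignments allow). Log2 changes are knockout minus WT on the log2(FPKM + 1) scale, which understates changes of low genes, and calls are limma adjusted p-values under 0.05 over all 11975 genes that averaged 1 FPKM or more. The median of all genes tested was 0.25 on this scale, so the typical gene had a higher value in the knockout as deposited. Beside the values as deposited, values rescaled by the median of ratios are given, which set that median to 0. In the authors' deposited comparison the median log2 fold change was 0.01, so the offset depends on the scaling. Cardiomyocyte markers (10 genes) summed to 17800 to 27500 FPKM in the knockout and 50200 to 56200 in WT, and fibroblast markers (10 genes) to 1490 to 2630 and 1080 to 1410. Of the cardiomyocyte list 8 genes were called lower (80.0%, against 16.4% of all genes). Actn2 and Nkx2-5 were called higher, at 0.60 and 0.39, and Nkx2-5 was not called after rescaling (0.12). Of the fibroblast list 6 were called higher and none lower. Mural markers (10 genes) summed to 811 to 1080 FPKM in the knockout and 428 to 601 in WT, with 5 called higher and 3 lower. Cnn1 alone averaged 331 ± 62.0 FPKM in the knockout and 1.28 ± 0.157 in WT. The higher mural sum thus owes much to 1 gene, and no sum was made without it. It is therefore not read as a rise of the mural markers as a set. The sums of endothelial and macrophage markers overlapped between groups, and no marker in the table was at 0 in any library. The part of these marker shifts in the results below was not tested, and in bulk tissue fewer cells of a type and less RNA per cell cannot be told apart.

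More of the mitoribosomal genes were lower in the knockout than higher, although the median gene was higher there as deposited. All 76 passed the minimum of 1 FPKM, and limma called 41 lower and 12 higher, with 23 not called. The background was 16.4% of all genes called lower and 44.9% called higher, against 53.9% and 15.8% of the members. Their median log2 change was -0.27, with quartiles of -0.59 and 0.01, against a median of 0.25 and quartiles of -0.12 and 0.59 for all genes. Of the 76, 56 had a negative log2 change and 65 lay below the all-gene median. After rescaling, 57 were called lower and 6 higher, where 27.0% of all genes were called in each direction and 54.0% in either. In the authors' deposited table, whose fold changes sit 0.28 log2 units below the ratios of per-library means and so near the rescaled values, 50 members were significantly lower and 2 higher, beside 22.8% and 23.1% of all genes. The 41 genes called lower were lower by all of these 3 readings.

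**Figure D1:**
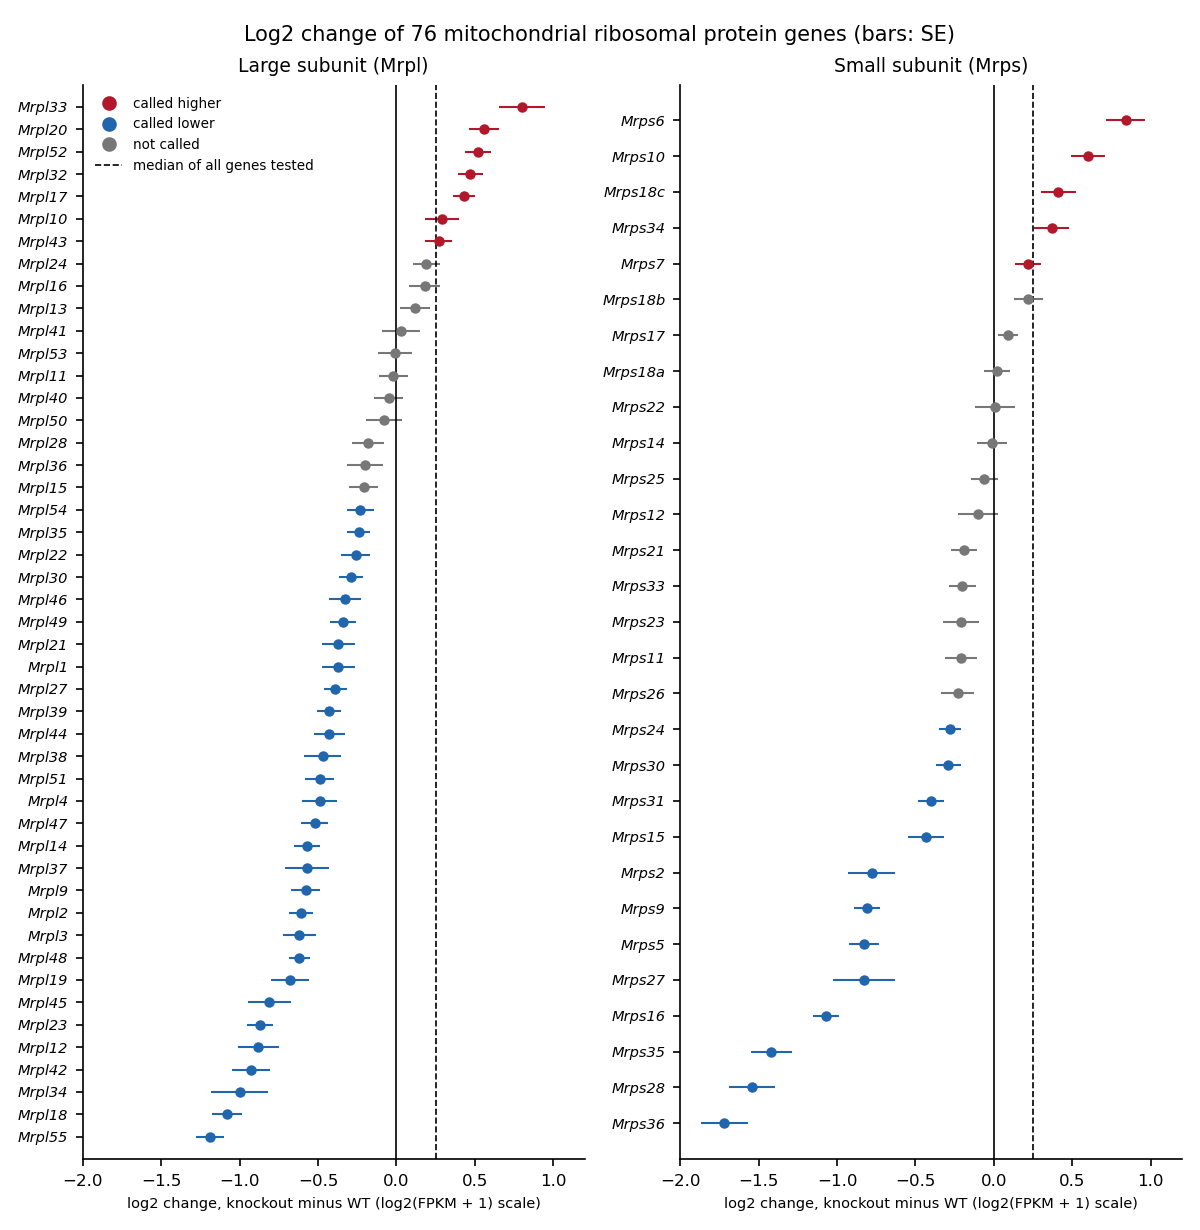
Log2 change (knockout minus WT, log2(FPKM + 1) scale) of each of the 76 genes with its limma standard error, large subunit on the left and small on the right, coloured by call; the solid line is 0 and the dashed line the median of all genes tested, 0.25. Changes run from -1.72 (Mrps36) to 0.84 (Mrps6), and 65 genes lie left of the dashed line.

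The changes were mostly moderate and uneven. Knockout means were under 50% of WT for 7 genes, 50% to 75% for 23, 75% to 100% for 26, 100% to 150% for 17 and above 150% for 3. The lowest was 30.2%, the median 82.6% and the highest 183%. The log2 changes of members had an SD of 0.52, against 0.75 over all genes tested. All 4 knockout libraries were below all 4 WT libraries for 40 genes and above them for 9, where 15.3% and 41.7% of all genes did so. WT 4 held the highest WT value for 61 of the 76 genes and the lowest for none, and knockout 1 held the lowest knockout value for 40, so the genes shifted together between libraries of a group. The fit without WT 4 called 38 lower and 11 higher, and the fit without knockout 1 called 39 and 13.

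Steady-state levels differed widely between genes of the same particle. WT means per length ran from 5.47 FPKM for Mrpl17 to 514 FPKM for Mrpl42, with 11 genes over 100 FPKM and 9 under 20. The SD of the log2 levels over members averaged 1.16 in each group. The 5 most abundant members over all libraries were Mrpl42, Mrpl33, Mrps21, Mrpl30 and Mrpl12, and they did not move alike. Mrpl42, a mitochondria-specific protein of the large subunit, had 214, 307, 277 and 285 FPKM in knockout 1 to 4 and 489, 479, 505 and 584 in WT 1 to 4. The groups were far apart, with a log2 change of -0.93 ± 0.121 (SE; adjusted p = 0.000148, limma). Mrpl12, the stalk protein that meets translation factors as they arrive at the ribosome, had 110, 162, 123 and 145 FPKM against 224, 248, 234 and 290. Every knockout value lay below every WT value, and its log2 change was -0.88 ± 0.133 (limma adjusted p = 0.00036). Mrpl30 fell by 0.29 on the log2 scale, from 226 ± 14.4 to 185 ± 12.6 FPKM (SD, n = 4 each; limma adjusted p = 0.011). Mrps21 averaged 210 ± 21.4 FPKM in the knockout and 239 ± 8.47 in WT, did not pass the test as deposited (limma adjusted p = 0.0763) and was called lower after rescaling (-0.47, adjusted p = 0.00216). Mrpl33 went the other way and is described with the genes that rose.

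The deepest falls were in genes named for the small subunit. Mrps36 had 28.1, 46.8, 39.4 and 39.2 FPKM in the knockout libraries and 115, 118, 125 and 150 in WT. The groups did not overlap, the knockout mean was 30.2% of WT, and the log2 change was -1.72 ± 0.15 (limma adjusted p = 1.6e-05). Despite its name, Mrps36 is now known as a component of the α-ketoglutarate dehydrogenase complex of the citric acid cycle and is not placed in either subunit by current structures. GENCODE names 3 pseudogenes of it, and how reads shared with them were assigned is not known. Mrps28, the mitochondrial relative of the bacterial mRNA-binding protein S1, had 22.6, 34.3, 27.8 and 37.3 FPKM against 92.2, 89.8, 78.8 and 96.3. The highest knockout value was well under the lowest WT value, with a log2 change of -1.54 ± 0.147 (limma adjusted p = 2.59e-05). Mrps35, a mitochondria-specific protein, had 16, 25.8, 21.3 and 23.7 FPKM against 59.6, 56.0, 57.9 and 61.6. Its WT libraries were tightly grouped, and the knockout mean was 37.0% of WT (log2 change -1.42, limma adjusted p = 2.2e-05).

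Other small-subunit genes that fell lie across the subunit. Mrps16, a counterpart of a bacterial protein and a known human disease gene, had 48.0, 60.6, 54.4 and 53.6 FPKM against 114, 109, 111 and 124. All knockout values were near a common level below WT, with a log2 change of -1.07 ± 0.0853 (limma adjusted p = 9.89e-06). Mrps5, which lines the path of the mRNA into the ribosome, averaged 18.6 ± 2.31 FPKM in the knockout and 33.7 ± 1.93 in WT (log2 change -0.83, limma adjusted p = 7.14e-05). Mrps2, a core protein of bacterial type, averaged 11.4 ± 2.57 and 19.9 ± 1.78 FPKM (log2 change -0.78, limma adjusted p = 0.00153). For both, all knockout libraries were below all WT libraries.

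In the large subunit the deepest falls were Mrpl55, Mrpl18 and Mrpl34. Mrpl55, in the central protuberance that bridges the subunits, had 29.5, 33.8, 27.5 and 29.8 FPKM against 67.1, 72.7, 63.4 and 75.9. The groups were cleanly apart and the knockout mean was 43.2% of WT, with a log2 change of -1.19 ± 0.0878 (limma adjusted p = 6.85e-06). Mrpl18, another protein of that region, had 56.9, 68.6, 72.6 and 58.6 FPKM against 127, 139, 133 and 149. It fell to 46.9% of WT in the means (log2 change -1.08, limma adjusted p = 1.84e-05). Mrpl34, a small protein of bacterial type, had 35.2, 57.3, 41.7 and 37.4 FPKM against 67.8, 90.8, 76.9 and 111. WT 4 was the highest and WT 1 the lowest WT value, yet WT 1 still lay above every knockout library (knockout mean 49.5% of WT, limma adjusted p = 0.00116). Mrpl45, which holds the ribosome at the inner membrane beside the exit tunnel, averaged 17 ± 2.67 FPKM in the knockout and 30.5 ± 5.12 in WT (log2 change -0.81, limma adjusted p = 0.000742).

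Mrpl3 and Mrpl44, the large-subunit genes linked to cardiomyopathy above, also fell. Mrpl3, a core protein near the catalytic centre, averaged 31.4 ± 3.52 FPKM in the knockout and 48.8 ± 5.37 in WT, with groups that did not overlap (log2 change -0.62, limma adjusted p = 0.000756). Mrpl44 had 28.5, 36.2, 28.6 and 28.6 FPKM against 41, 37.6, 40.7 and 45.8. Knockout 2 stood near the lowest WT library and the other knockout libraries lay well below, with a log2 change of -0.43 ± 0.0988 (limma adjusted p = 0.00422). Mrps22, the small-subunit gene of the same disease class, averaged 20.3 ± 3.4 FPKM in the knockout and 20.2 ± 2.66 in WT. Its groups overlapped and its log2 change was 0.01 ± 0.128 as deposited and -0.26 after rescaling, neither past the test (limma adjusted p = 0.966 and 0.119).

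The genes called higher were 7 of the large and 5 of the small subunit. Mrps6, a bacterial-type protein of the small subunit, had 65.7, 74.5, 97.9 and 66.5 FPKM in the knockout and 38.3, 42.7, 41.2 and 44.3 in WT. Knockout 3 was the highest, every knockout library exceeded every WT library, and the log2 change was 0.84 ± 0.126 (limma adjusted p = 0.000353). The locus of Mrps6 (mm10, chr16:92058336-92112227, + strand) spans Slc5a3 on the same strand, a myo-inositol transporter gene at 1.41 ± 0.503 FPKM in the knockout and 0.668 ± 0.118 in WT, so that reads of the pair could be split between them. Mrpl33, a small bacterial-type protein of the large subunit, had 393, 284, 340 and 238 FPKM against 169, 179, 166 and 192. The knockout libraries were widely spread but all above WT, with a log2 change of 0.80 ± 0.145 (limma adjusted p = 0.00104). In the knockout Mrpl33 was the most abundant member on average, at 314 ± 67.6 FPKM, where Mrpl42 had 271 ± 40.0. Its range overlapped that of Mrpl42, and Mrpl42 exceeded it in knockout 2 and 4.

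Mrps10 had 31.4, 27.4, 39.0 and 32.3 FPKM against 19.3, 20.3, 22.3 and 22.2, and Mrpl20 averaged 112 ± 4.65 against 75.9 ± 9.99. The groups of each did not overlap, and their log2 changes were 0.60 and 0.56 (limma adjusted p = 0.001 and 0.000772). Mrpl52, a mitochondria-specific protein, and Mrpl17, beside the exit tunnel, rose by 0.52 and 0.43 on the log2 scale (limma adjusted p = 0.000607 and 0.000632). Mrpl17 was the lowest of all members in WT, at 5.47 ± 0.179 FPKM, and reached 7.73 ± 0.47 in the knockout. These 6 genes, Mrps6, Mrpl33, Mrps10, Mrpl20, Mrpl52 and Mrpl17, were called higher in all 17 settings tried. In the authors' deposited table Mrpl33 and Mrps6 were the members significantly higher, with log2 fold changes of 0.55 and 0.59.

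The other 6 rises were calls of the values as deposited that were lost on rescaling. Mrpl32, which is cut by the m-AAA protease before it enters the ribosome, averaged 59.0 ± 4.45 FPKM in the knockout and 42.2 ± 2.79 in WT (log2 change 0.47, limma adjusted p = 0.000715) and was 0.20 after rescaling (adjusted p = 0.0668). Mrps34, needed for a stable small subunit, averaged 58.0 ± 5.24 against 44.9 ± 6.43 FPKM, with overlapping groups (limma adjusted p = 0.0177). Mrps18c was 0.41 and 0.14, Mrps34 was 0.37 and 0.09, and Mrpl10 was 0.29 and 0.01, as deposited and rescaled. Mrps7 and Mrpl43 changed sign, from 0.22 to -0.06 and from 0.27 to -0.0033. None of the 12 genes called higher as deposited was called lower after rescaling.

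**Figure D2:**
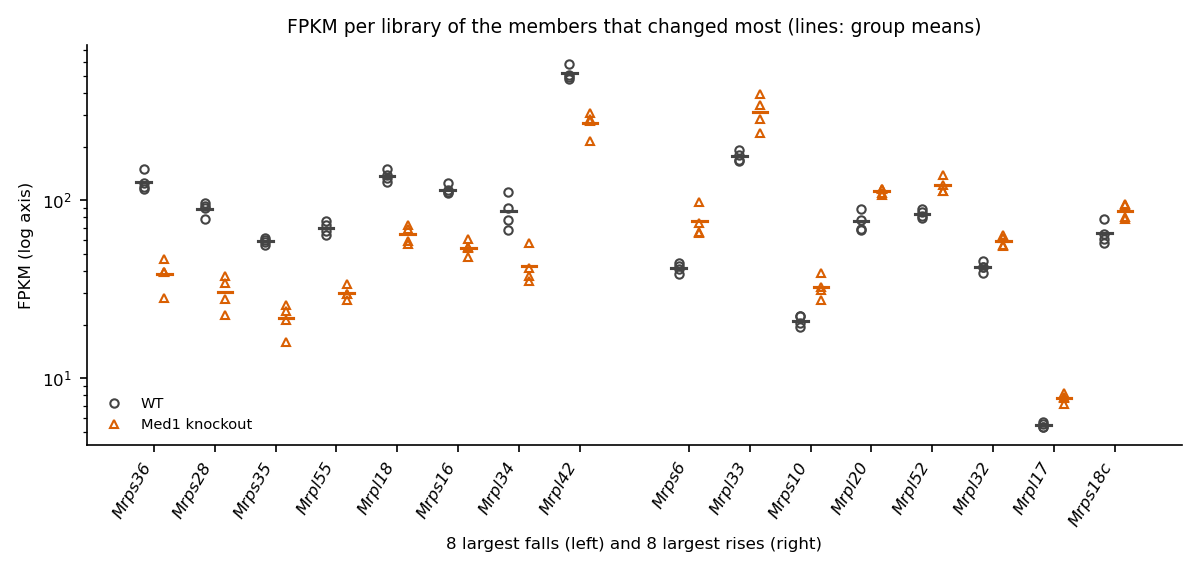
FPKM (log axis) in each library of the 8 largest falls and the 8 largest rises whose groups do not overlap; circles are the 4 WT and triangles the 4 knockout libraries, and lines are group means. Mrps36 separates the groups most among the falls, at 127 against 38.4 FPKM on average, and Mrps6 among the rises, at 41.6 against 76.1 FPKM.

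Mrps18a, Mrps18b and Mrps18c descend from the same bacterial gene, and the proteins sit at different places, Mrps18a in the large subunit by structure and the other two in the small. Mrps18c had 94.2, 79.9, 94.5 and 78.8 FPKM in the knockout and 64.7, 60.5, 57.6 and 78.0 in WT. WT 4 came close to the lowest knockout value without overlap (log2 change 0.41, limma adjusted p = 0.0096; 0.14 after rescaling, adjusted p = 0.348). Mrps18b averaged 38.5 ± 4.32 against 32.7 ± 1.76 FPKM with overlapping groups (log2 change 0.22, limma adjusted p = 0.061; -0.05 after rescaling). Mrps18a averaged 63.4 ± 5.13 against 62.3 ± 4.38 FPKM (log2 change 0.02, limma adjusted p = 0.816), and after rescaling it was called lower (-0.25, adjusted p = 0.0435). The differences between these genes' changes were not tested.

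With genes assigned by symbol, large and small subunits had nearly the same summed level relative to WT. The 47 Mrpl genes summed to 2615, 2906, 2850 and 2585 FPKM in knockout 1 to 4 and to 3267, 3303, 3240 and 3754 in WT 1 to 4. The 29 Mrps genes summed to 1234, 1369, 1346 and 1242 FPKM and to 1553, 1582, 1542 and 1728. Both sums were lower in every knockout library than in any WT library, at 80.8% and 81.0% of WT in the means. After rescaling these became 66.5% and 66.7%. The ratio of mean large-subunit to mean small-subunit FPKM was 1.31, 1.31, 1.31 and 1.28 in the knockout and 1.30, 1.29, 1.30 and 1.34 in WT. By symbol, its group means, 1.30 ± 0.015 and 1.31 ± 0.0222, differed by less than the spread between libraries. The sums and the ratio were not repeated by structure, which takes Mrps36, Mrps30 and Mrps18a out of the small subunit. Mrps36 alone averaged 38.4 FPKM in the knockout and 127 in WT, so the near-equality is shown for the naming rule only. All members together took 0.819% of the summed FPKM of a knockout library and 0.955% of a WT library on average.

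**Figure D3:**
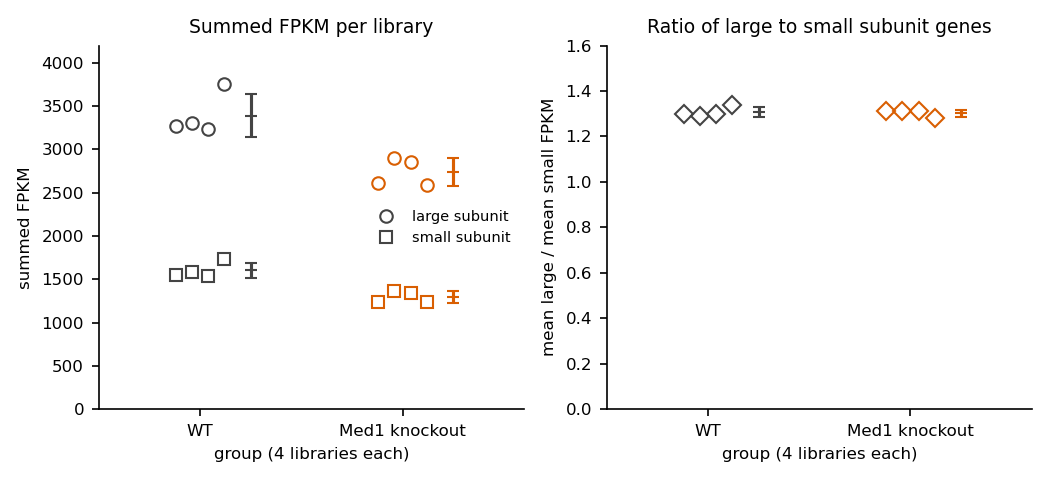
Left, summed FPKM per library of the large-subunit (circles) and small-subunit genes (squares); right, ratio of mean large-subunit to mean small-subunit FPKM. Points are libraries, 4 per group, with the group mean and SD beside them. Genes are assigned by symbol, so Mrps36, Mrps30 and Mrps18a count as small subunit. Both sums are lower in the knockout, at 80.8% and 81.0% of WT, and the ratio stays between 1.28 and 1.34.

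Calls as deposited gave a larger share of lower genes in the large subunit, and calls after rescaling did not. Of the large-subunit genes 29 of 47 (61.7%) were called lower and 7 higher, with a median log2 change of -0.34. Of the small-subunit genes 12 of 29 (41.4%) were called lower and 5 higher, with a median of -0.21. Those called higher were 14.9% of the large and 17.2% of the small subunit. The shares of all genes were 16.4% lower and 44.9% higher. The small subunit held both ends of the range, from -1.72 to 0.84, and the large subunit ran from -1.19 to 0.80. After rescaling 35 were called lower (74.5%) and 4 higher in the large subunit, and 22 lower (75.9%) and 2 higher in the small. The share of all genes was then 27.0% in each direction. The 5 small-subunit genes called higher as deposited were 3 without WT 1 and 3 without WT 3. With genes assigned by structure instead of by name, which moves Mrps30 and Mrps18a to the large subunit and leaves Mrps36 out, the calls were 30 lower and 7 higher of 49 and 10 lower and 5 higher of 26. Mrps30 itself averaged 19.0 ± 1.7 FPKM in the knockout and 23.3 ± 0.737 in WT (log2 change -0.29, limma adjusted p = 0.01). No test was made of the difference between subunits, because members of a subunit are not replicates.

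Regions of the large subunit were described from lists of structural position. Of the 7 genes of the central protuberance, Mrpl18, Mrpl27, Mrpl38, Mrpl40, Mrpl46, Mrpl48 and Mrpl55, 6 were called lower and none higher, with a median of -0.47. Mrpl40 was the exception as deposited, at 25 ± 1.82 against 25.9 ± 2.64 FPKM, and was called lower after rescaling (-0.32, limma adjusted p = 0.0193). Over all genes 16.4% were called lower and 44.9% higher as deposited. Of the 8 genes around the exit tunnel, where new chains leave towards the membrane, 6 were called lower and Mrpl17 higher, with a median of -0.43. The 5 stalk genes went both ways as deposited, with a median of -0.02. Mrpl12 and Mrpl54 were called lower, at -0.88 and -0.23, and Mrpl10 higher, at 0.29, with overlapping groups. After rescaling 3 stalk genes were called lower and none higher, with a median of -0.29, and Mrpl10 was at 0.01 and not called. Mrpl11, whose bacterial counterpart forms the base of the stalk, averaged 15.3 ± 1.64 against 15.6 ± 1.1 FPKM, and Mrpl53 averaged 106 ± 12.2 against 107 ± 11.5. Both overlapped between groups as deposited (limma adjusted p = 0.848 and 0.941), and after rescaling Mrpl11 was called lower (-0.29, adjusted p = 0.0279) and Mrpl53 was at -0.29 (adjusted p = 0.0663).

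Proteins with bacterial counterparts and mitochondria-specific proteins had similar medians. Of the 46 bacterial-type genes 25 were called lower (54.3%) and 9 higher (19.6%), with a median of -0.27. Of the 29 genes listed as mitochondria-specific 15 were called lower (51.7%) and 3 higher (10.3%), with a median of -0.23. The shares of all genes were 16.4% lower and 44.9% higher. After rescaling 34 bacterial-type genes were called lower and 5 higher, and 22 and 1 of those listed as mitochondria-specific, against 27.0% of all genes in each direction. That list holds Mrps18a and Mrps18b, which descend from a bacterial gene and were not called as deposited. Split by subunit, the bacterial type had 18 of 30 lower as deposited in the large and 7 of 16 in the small subunit. The mitochondria-specific type had 12 of 19 and 3 of 10. Genes called lower had a median transcript length of 1316 nt, those called higher 882 nt and those not called 955 nt. Over the 76 genes, which share the same libraries, Pearson's r of log2 change with log2 transcript length was -0.18 (Spearman's rho -0.23), and with log2 WT level -0.25 (rho -0.24).

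Several members stayed near their WT level as deposited, and so lay below the median gene. Mrps14 averaged 22.3 ± 2.05 against 22.4 ± 2.27 FPKM, a log2 change of -0.01 ± 0.0942 (limma adjusted p = 0.959). Mrps12, which sits at the decoding site, averaged 44.9 ± 7.87 against 47.7 ± 2.92 FPKM (log2 change -0.10, limma adjusted p = 0.504). Both were called lower after rescaling, at -0.28 and -0.38 (adjusted p = 0.0354 and 0.0322), so that the call for these genes depends on the scaling.

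Genes that overlap members in the genome did not always move with them. The libraries were strand-specific, but whether counting used strand is not given in the sources used here, so reads of overlapping genes may not be separated. Coding genes overlapped 18 members, 2 of them on the same strand. Mrpl18 (mm10, chr17:12911355-12916091, - strand) overlaps Tcp1, a subunit gene of the cytosolic TRiC chaperonin, on the opposite strand. Tcp1 rose from 80.1 ± 3.59 to 145 ± 9.81 FPKM (log2 change 0.84, limma adjusted p = 1.6e-05) while Mrpl18 fell. Wdfy1 rose by 1.41 on the log2 scale opposite Mrpl44, Rab6a by 0.69 opposite Mrpl48, and Syvn1 by 0.35 opposite Mrpl49 (limma adjusted p = 3.81e-05, 2.47e-05 and 0.00629), and each of these members was called lower (-0.43, -0.62 and -0.34). Tmem63b and its partner Mrpl14 were both lower, at -0.45 and -0.57. These pairs were chosen after their values were seen.

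Promoter sequences were read from RefSeq on build GRCm38.p6, from 250 bases before to 50 bases after each annotated start, and 67 of the 76 members had such a window. Members with no entry were Mrpl4, Mrpl13, Mrpl15, Mrpl19, Mrpl38, Mrpl54, Mrps28, Mrps34 and Mrps35. Motifs were searched on both strands: GCGCA and GCGC with any base between them for NRF1, a factor known for genes of mitochondrial function, CCGGAAGT for ETS factors, AAGATGGC for YY1, TNAAGGTCA for ERR, an orphan nuclear receptor family of heart energy metabolism, and GGGCGG for Sp1. The NRF1 letters were in 12 of 67 members (17.9%), against 11.7% of the 8651 genes tested that had a window. The ETS letters were in 12 (17.9% against 9.17%), the YY1 letters in 12 (17.9% against 5.4%) and the Sp1 letters in 33 (49.3% against 70.0%). The ERR letters were in none, and in 0.902% of the genes tested. NRF1 letters were in 8 of 35 members called lower, 2 of 11 called higher and 2 of 21 not called, and ETS letters in 6, 4 and 2. A gene counted if any of its windows matched, and members had 1.09 windows per gene against 1.29 for the genes tested. The shares therefore rest on unequal amounts of sequence. A match describes the letters of the window and is no evidence of binding.

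Stretches upstream of the start are printed for genes that fell (Mrpl12, Mrpl45, Mrpl3) and rose (Mrpl17, Mrpl32, Mrps18c) with the same letters in them, each 5′ to 3′ along the gene's strand. Capitals mark the NRF1 letters in the first 4 and the ETS letters in the other two, and the match is on the opposite strand in Mrpl12 and Mrps18c.
Mrpl12: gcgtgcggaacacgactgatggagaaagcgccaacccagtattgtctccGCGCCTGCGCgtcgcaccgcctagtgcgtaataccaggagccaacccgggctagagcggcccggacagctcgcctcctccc
Mrpl45: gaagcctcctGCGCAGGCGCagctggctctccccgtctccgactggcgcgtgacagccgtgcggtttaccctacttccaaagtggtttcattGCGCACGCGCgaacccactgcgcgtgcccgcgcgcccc
Mrpl17: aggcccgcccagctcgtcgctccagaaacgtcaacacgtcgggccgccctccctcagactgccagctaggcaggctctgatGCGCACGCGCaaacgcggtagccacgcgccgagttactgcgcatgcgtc
Mrpl32: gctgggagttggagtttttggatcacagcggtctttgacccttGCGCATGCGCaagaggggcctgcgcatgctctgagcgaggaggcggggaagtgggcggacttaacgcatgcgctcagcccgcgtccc
Mrpl3: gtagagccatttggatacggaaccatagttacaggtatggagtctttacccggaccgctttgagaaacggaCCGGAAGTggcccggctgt
Mrps18c: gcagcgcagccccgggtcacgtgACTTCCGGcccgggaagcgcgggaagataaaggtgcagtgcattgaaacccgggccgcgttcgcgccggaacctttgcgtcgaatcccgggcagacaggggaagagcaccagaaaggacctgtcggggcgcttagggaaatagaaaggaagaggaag
The stretches lie at chr11:120484507-120484636 (+ strand), chr11:97315586-97315715 (+ strand), chr7:105811088-105811217 (- strand), chr13:14613038-14613167 (- strand), chr9:105053178-105053267 (+ strand) and chr5:100798579-100798758 (+ strand), in the order printed. Mrpl45 holds the NRF1 letters at 2 places in the stretch printed and at 1 more after its start, and its log2 change of -0.81 stands beside 0.43 for Mrpl17 and 0.47 for Mrpl32, which hold them too.

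Mrpl46 and Mrps11 start head to head on chromosome 7. The loci in the deposited table leave 41 bases between them. In GENCODE, Mrpl46 reaches into the deposited locus of Mrps11 on the opposite strand, and Mrps11 does not reach into that of Mrpl46. The stretch between the deposited loci is printed along the strand of Mrps11 from chr7:78783090-78783130, and holds neither the NRF1 nor the ETS letters.
Mrps11: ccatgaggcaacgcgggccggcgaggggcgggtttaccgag
Mrpl46 had 27.8, 30.1, 31.3 and 31.2 FPKM in the knockout and 38.2, 34.6, 34.5 and 46.2 in WT. Mrps11 had 16, 19.1, 17.6 and 18.6 FPKM against 19.2, 19.4, 19.8 and 25.1. The groups of neither gene overlapped, although those of Mrps11 nearly touched. Mrpl46 was called lower (-0.33, limma adjusted p = 0.0174) and Mrps11, at -0.21, did not pass the test (adjusted p = 0.099). WT 4 was the highest library for both.

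Other proteins of the particle, whose symbols in this table do not start with Mrpl or Mrps, were called in both directions as deposited. Of 7 genes, 2 were called lower and 2 higher (28.6% each, against 16.4% and 44.9% of all genes), with a median of 0.09. The count called higher was 0 without knockout 3, without WT 2 and without WT 3, and 1 without knockout 1, without knockout 2, without WT 1, with no minimum and with the replicate block, while the count called lower was 2 in each of these fits. Ptcd3, a small-subunit protein with RNA-binding repeats, had 26.4, 32.1, 31.2 and 30.1 FPKM in the knockout and 67.6, 62.4, 66.7 and 74.4 in WT. Its groups were far apart (log2 change -1.15, limma adjusted p = 6.85e-06). Ict1, a large-subunit protein that can release stalled chains, fell by 0.81 on the log2 scale (limma adjusted p = 3.3e-05). Mrp63 and Aurkaip1 rose by 0.32 and 0.35 (limma adjusted p = 0.0342 and 0.0239), and both were at 0.07 and not called after rescaling. Dap3, a GTP-binding protein of the small subunit, averaged 19.9 ± 1.63 against 18.7 ± 0.399 FPKM (log2 change 0.09, limma adjusted p = 0.339; -0.18 after rescaling). Gadd45gip1 averaged 12.7 ± 3.9 against 15.9 ± 3.7 FPKM (log2 change -0.32, limma adjusted p = 0.264).

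The factors that work on the mitoribosome were mostly called lower. Of 13 translation factors 10 were called lower (76.9%, against 16.4% of all genes) and none higher (against 44.9%), with a median of -0.57. After rescaling 12 were called lower, against 27.0% of all genes. Tufm, the elongation factor that brings aminoacyl-tRNA, had 71.3, 137, 90.6 and 94.3 FPKM against 155, 170, 181 and 193. Knockout 2 was the nearest to WT and still below it, with a log2 change of -0.86 ± 0.174 (limma adjusted p = 0.00202). Its exchange factor Tsfm fell by 0.69 on the log2 scale, the translocase Gfm1 by 0.46 and the initiation factor Mtif2 by 0.57 (limma adjusted p = 0.00552, 0.00222 and 0.000147). The largest falls of the list were Mrrf, the recycling factor, at -1.16, Oxa1l, the insertase that puts new chains into the inner membrane, at -1.15, and Taco1, an activator of Cox1 translation, at -0.92 (limma adjusted p = 4.61e-05, 2.2e-05 and 0.000116).

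Assembly and rRNA-modifying factors gave 16 called lower and 1 higher of the 27 in the table, with a median of -0.39. These were 59.3% and 3.7%, against 16.4% and 44.9% of all genes. After rescaling 22 were called lower, against 27.0% of all genes. Mrm1, which methylates the large-subunit rRNA, averaged 3.65 ± 0.302 FPKM in the knockout and 11.7 ± 2.2 in WT (log2 change -1.43, limma adjusted p = 1.6e-05). Mettl17 and the GTPase Noa1, both of small-subunit assembly, fell by 1.06 and 0.82 on the log2 scale (limma adjusted p = 3.22e-05 and 0.00225). Mpv17l2 was the gene that rose, by 0.43 (limma adjusted p = 0.0151), and was not called after rescaling (0.17), and the fit without WT 4 called 2 genes higher. Of 9 genes of mitochondrial transcription and mRNA handling 5 were called lower (55.6%) and none higher, and after rescaling 6 were called lower. Lrpprc, which keeps mitochondrial mRNAs stable, had 14.2, 23.8, 17.4 and 20.4 FPKM against 54.5, 51.2, 56.1 and 54.3. Every knockout library was far below WT (log2 change -1.48, limma adjusted p = 2.04e-05). Pnpt1 and Supv3l1, which degrade mitochondrial RNA together, both fell by 0.51 (limma adjusted p = 0.00302 and 0.0115).

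**Figure D4:**
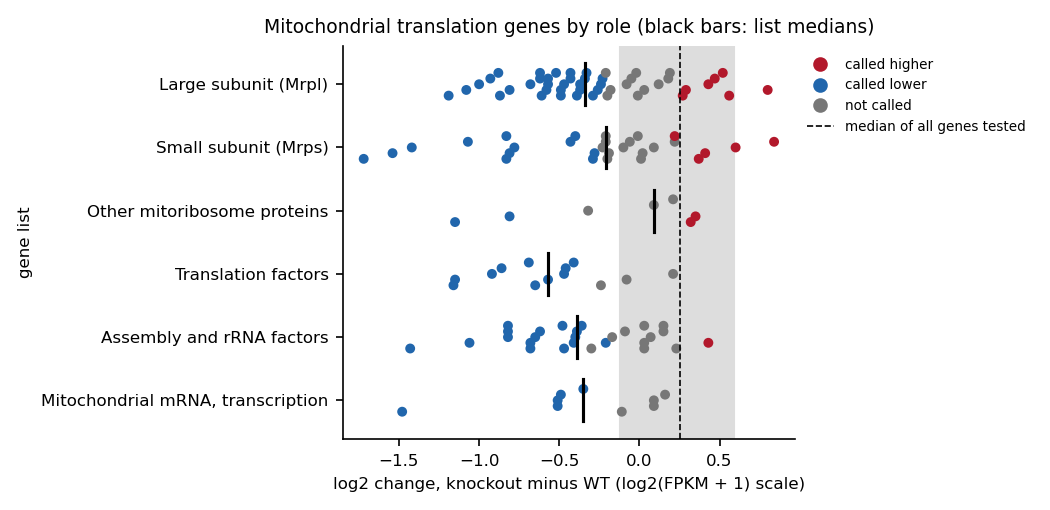
Log2 change (knockout minus WT, log2(FPKM + 1) scale) of each gene of the mitochondrial translation lists, coloured by call, with list medians as black bars; the grey band is the middle range of all genes tested, quartiles -0.12 to 0.59, and the dashed line their median, 0.25. Translation factors have the lowest median, -0.57, and other mitoribosome proteins the highest, 0.09.

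Other groups place these changes in context, from the same libraries and with no test between lists. Cytosolic ribosomal protein genes, which encode the ribosome outside mitochondria, had 63 called higher (77.8%, against 44.9% of all genes) and 1 lower of 81 tested, with a median of 0.39. After median-of-ratios rescaling 22 were called higher (27.2%, against 27.0%) and 5 lower, and with quantile normalization 57 were called higher and 2 lower, where 28.7% of all genes were called higher. Respiratory complex I genes (Nduf), whose complex also needs subunits made by the mitoribosome, had 37 of 45 called lower and none higher, with a median of -0.61. The share called lower was 82.2%, against 16.4% of all genes. With median-of-ratios rescaling 43 were called lower, against 27.0% of all genes, and with quantile normalization 36. The mitoribosomal median of -0.27 lay between these lists.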

How the data were processed

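Per the labels' protocols, frozen ventricles gave total RNA, poly(A) RNA was enriched and strand-specific libraries were made. The submitters' processing notes name TopHat 1.0.0, Cufflinks, Cuffdiff and the build mm10. The authors deposited a table with the FPKM of every gene in each library. Their second deposited table compares the groups by pooled FPKM, log2 fold change, p-value and q-value. Their code of 0.001 for an estimate of 0 was set to 0. Each library has 312 or 313 cells with a word in place of a number, and none belongs to a member.

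limma 3.58.1 (R 4.3.3) with an intensity trend was fitted to log2(FPKM + 1) over the 11975 genes averaging 1 FPKM or more, with two-sided tests and Benjamini-Hochberg adjustment. Positions are the authors' loci, counted from 1, and overlaps come from GENCODE M21. Named were the 8 largest rises and 8 largest falls whose groups did not overlap, the 5 most abundant members, the 3 nearest to no change, a set by role, and the 3 largest changes each way in partner lists. Other named genes were chosen after their values were seen. Members and lists were chosen with earlier results of these data known. The fit was tested on simulated data. Alternatives were other pseudocounts, minimums, scalings and variance options, the replicate block, and each library left out.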

Additional observations from a re-analysis of the deposited data

Results flagged for a closer look

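In 6 of 154 groups of 4 libraries checked, 1 library stood apart from the other 3 by more than Dixon's 95% critical value, and chance flags about 1 in 20 groups. WT 4 was the high library for Mrpl28 (101 FPKM, others 88.0 to 89.5), Mrps15 (63.5, others 52.6 to 53.1) and Mrps11 (25.1, others 19.2 to 19.8). Knockout 2 was the high library for Mrpl2 (47.6 FPKM, others 39.7 to 40.5) and Mrpl44 (36.2, others 28.5 to 28.6). For Mrpl10 it was WT 1 (40.3 FPKM, others 37.2 to 37.7).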

How the results depend on the processing

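Scaling was the choice that moved the results most. With median-of-ratios rescaling and with quantile normalization, members called higher were 6 and 6 (large subunit 4 and 4, small subunit 2 and 2), small-subunit genes called lower were 22 and 22, and the median log2 change was -0.54 and -0.51 (large -0.61 and -0.60, small -0.48 and -0.46). Signs turned for Mrpl13 (-0.16, -0.14), Mrps18a (-0.25, -0.23), Mrps7 (-0.06, -0.05), Mrpl16 (-0.10, -0.10), Mrpl24 (-0.08, -0.08), Mrps17 (-0.18, -0.19), Mrpl43 (-0.0033, -0.0015), Mrps18b (-0.05, -0.05), Mrps22 (-0.26, -0.26), Mrpl41 (-0.23, -0.22) and Dap3 (-0.18, -0.17). Each scaling sets the median of all genes near 0 by its construction. Over 17 settings 38 of the 41 genes stayed called lower (not Mrpl22, Mrpl35 and Mrpl54) and 6 of the 12 called higher.

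Leaving out each library in turn gave 8 to 13 members called higher and 38 to 42 lower (large subunit 5 to 8 and 26 to 30, small subunit 3 to 6 and 12 to 14) and medians of -0.30 to -0.23 (large -0.38 to -0.30, small -0.25 to -0.17). Without WT 1 and without WT 3 the count of small-subunit genes called higher was 3 in each fit, and the members called higher were 8 in each. Uncalled genes near 0 changed sign in some of these fits, with ranges over all of them of -0.06 to 0.07 for Mrpl53, -0.03 to 0.06 for Mrps18a, -0.17 to 0.02 for Mrps12, -0.14 to 0.01 for Mrpl50, -0.05 to 0.06 for Mrps14, -0.09 to 0.08 for Mrps22, -0.05 to 0.15 for Mrpl41 and -0.07 to 0.04 for Mrpl11. Same-numbered libraries did not deviate together (correlations of 0.14, 0.0325, -0.0409 and -0.0138, and knockout 1 alone correlated best with its own number). With the replicate block 9 members were called higher and 41 lower. The depth per library is unknown, so no counting limit can be given for low genes such as Mrpl17.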
